A study of Mus musculus with 6 samples.

Results

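The Hedgehog genes described here are 9 genes with a row in the deposited table of 19353 genes: the co-receptor genes Gas1, Boc and Cdon, the receptor gene Ptch1, the signal transducer gene Smo, the decoy receptor gene Hhip and the transcription factor genes Gli1, Gli2 and Gli3. All 9 rows were found by gene name. The set was chosen by the level of Gas1, which was about 2-fold lower with melanin-concentrating hormone (MCH) than in Control. The differences between these groups are therefore given for the 9 genes as a description, with no test of their own. Where calls of a test over all genes are given for them, they are no independent support. Mesenchymal stem cells, stromal progenitors of bone, fat and cartilage, had been purified from the bone marrow of wild-type (WT) mice, and 6 samples were sequenced as polyadenylated RNA. In the MCH group (3 samples) the osteogenic medium held 0.5 µM MCH, a peptide hormone, and in the Control group (3 samples) it did not. Both groups received ascorbic acid (50 µM), β-glycerophosphate (10 mM) and dexamethasone (100 nM). Sampling was on day 9 by the sample titles and on day 8 by the series design. No age or sex of the mice was given. Whether replicates were separate cultures or animals is stated nowhere in the labels, so a p-value here measures no more than how these samples varied, possibly for technical reasons.

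Hedgehog ligands bind the membrane protein PTCH1 and so release SMO from its inhibition. SMO then moves into the primary cilium and turns the GLI proteins into activators of transcription, where without ligand GLI3, and in part GLI2, are processed to repressors. GAS1, BOC and CDON bind the ligand together with PTCH1 and raise the response to it. In the developing skeleton, Indian hedgehog from cartilage directs neighbouring progenitors to the osteoblast fate. GAS1 is also known, apart from Hedgehog, for blocking entry into S phase when it is overexpressed in fibroblasts.

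Library totals ran from 16521980 to 18803949 counts. On the first principal component of log2 CPM (counts scaled by library depth), MCH replicate 1 (-10.9) lay nearer to the Control libraries (18.9 to 25.5) than MCH replicates 2 and 3 did (-32.3 and -24.8). The labelled cell type was checked against marker genes. All 12 marrow stromal markers had counts in every library, though Lepr had only 5 to 13 with MCH and 15 to 20 in Control. Having counts does not single out stromal cells, since the 5 endothelial markers also had them in every library but Control replicate 1. The summed level of the stromal markers was 5576 to 5945 CPM with MCH and 7441 to 8004 CPM in Control. Most of that sum was Col1a1, which averaged 3810 CPM (MCH) and 5167 CPM (Control). Ly6a averaged 533 CPM (MCH) and 996 CPM (Control). Of these markers, 5 (Pdgfra, Pdgfrb, Ly6a, Nt5e and Col1a1) fell and none rose by the test used throughout, edgeR's quasi-likelihood test with Benjamini-Hochberg adjustment over all genes tested, where 5.40% of all genes tested fell and 3.64% rose. DESeq2 called 5 lower and 1 higher, and limma-voom and limma on FPKM, a length-scaled expression value, each called 4 lower and none higher. At an unadjusted p under 0.05 there were 5 lower and 1 higher. The stromal markers that did not pass by edgeR had log2 fold changes on both sides of 0. They were Lepr (-0.71), Cd44 (-0.30), Thy1 (-0.23), Cxcl12 (-0.09), Eng (0.04), Itgb1 (0.08) and Vcam1 (0.48). Counts of the leukocyte gene Ptprc were 0, 0 and 2 with MCH and 1, 1 and 0 in Control. The 10 leukocyte markers summed to 4.34, 4.74 and 21.4 CPM in MCH replicates 1, 2 and 3 and to 3.83 to 8.94 CPM in Control, so MCH replicate 3 stood apart; 2 of them could be tested and neither passed, at an unadjusted p under 0.05 or by any tool. The 5 endothelial markers summed to 3.66 to 5.97 CPM with MCH and 5.03 to 7.19 CPM in Control, and of 3 tested none passed by any tool, with 1 lower at an unadjusted p under 0.05. Smooth muscle and pericyte markers summed to 1709 to 1890 CPM with MCH and 1426 to 1566 CPM in Control, led by the actin gene Acta2, and 1 of 5 tested, Tagln, rose. At an unadjusted p under 0.05, 4 of the 5 were higher and none lower. DESeq2 called 2 higher, and limma-voom and limma on FPKM called 1 higher each, with none lower. Osteoblast markers summed to 4180 to 4593 CPM with MCH and 6067 to 6728 CPM in Control, nearly all of it from the collagen gene Col1a1, which is also among the stromal markers, and from Spp1. Sp7 and Bglap, genes of committed osteoblasts, had at most 4 counts in any library, while 3 of the 4 osteoblast markers tested (Alpl, Spp1 and Col1a1) fell. In bulk RNA, fewer cells of a type and less RNA per cell cannot be told apart. The part of the 5 lower stromal markers in the values below was not tested.

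Gas1 had the largest difference between groups among the 9 genes and a small spread within each. Its level was 73.9, 69.4 and 67.5 CPM in the MCH libraries and 145, 142 and 143 CPM in the Control libraries. The groups did not overlap, and the gap between them was wider than the range within either. The means were 70.3 ± 3.26 CPM with MCH and 144 ± 1.56 CPM in Control (SD, n = 3 each), a log2 fold change of -1.03 ± 0.06 (SE from the edgeR fit). In raw counts this was 1165 to 1260 with MCH and 2366 to 2721 in Control, so counting error was small beside the difference. With any 1 library left out the log2 fold change lay between -1.07 and -1.0. MCH replicate 3, the library with the highest leukocyte marker sum, had the lowest Gas1 level of the 6, close to that of MCH replicate 2. A link between leukocyte RNA and Gas1 was not tested. In the authors' deposited table Gas1 alone of the 9 carries a mark, UP, which in that table means a higher mean in the Control columns.

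Gas1 (ENSMUSG00000052957) lies at chr13:60174405-60177365 on the minus strand of GRCm38, the build named in the submitters' processing notes. Its transcripts in GENCODE M21 consist of a single exon, so the gene has no introns. Gm48488, a long non-coding RNA on the opposite strand, shares 589 exonic bases with it. No source used here gives the strand setting of the counting, so reads from that RNA could not be told apart from Gas1 reads.

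The 250 bases before the RefSeq transcript starts of Gas1 and Gli2 are shown because these were the 2 genes of the 9 past the threshold used over all genes (an adjusted p under 0.05). They are from RefSeq on GRCm38.p6, 5′ to 3′ on the minus strand, chr13:60177536-60177785 for Gas1 and chr1:119053620-119053869 for Gli2. For Gas1 the RefSeq start lies upstream of the M21 start given above. Capitals mark the core of the GLI binding motif, ACCACCC, or its reverse complement, GGGTGGT, which is part of the full motif GACCACCCA.
Gas1: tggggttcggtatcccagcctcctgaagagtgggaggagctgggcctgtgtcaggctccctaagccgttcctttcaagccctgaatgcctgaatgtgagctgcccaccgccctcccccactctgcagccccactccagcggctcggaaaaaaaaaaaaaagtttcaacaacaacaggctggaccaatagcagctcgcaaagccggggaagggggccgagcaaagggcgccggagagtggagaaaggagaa
Gli2: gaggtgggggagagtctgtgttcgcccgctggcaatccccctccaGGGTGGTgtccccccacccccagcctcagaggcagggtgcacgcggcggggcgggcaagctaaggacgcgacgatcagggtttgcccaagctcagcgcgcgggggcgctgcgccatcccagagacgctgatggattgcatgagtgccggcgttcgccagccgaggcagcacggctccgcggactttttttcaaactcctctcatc
Promoters were found for 7 of the 9 genes, Boc and Gli1 being the others. Some windows do not lie before the outermost M21 start. Those of Cdon (chr9:35451826-35452075), Ptch1 (chr13:63565736-63565985) and Gli3 (chr13:15463473-15463722) lie inside the gene spans given below. None of the 7 windows held the full motif on either strand, against 0.225% of all 32851 promoters. The core was present in the Gli2 window, beginning at base 46, and in no other of the 7, against 3.92% of all promoters. A match is a run of letters and not a shown binding site, and its absence says only that these letters are not in this window. The Gas1 window held 58.8% G and C with 10 CpG pairs, the Gli2 window 67.2% with 22, and the median over all promoters was 52.4% with 6.

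**Figure D1:**
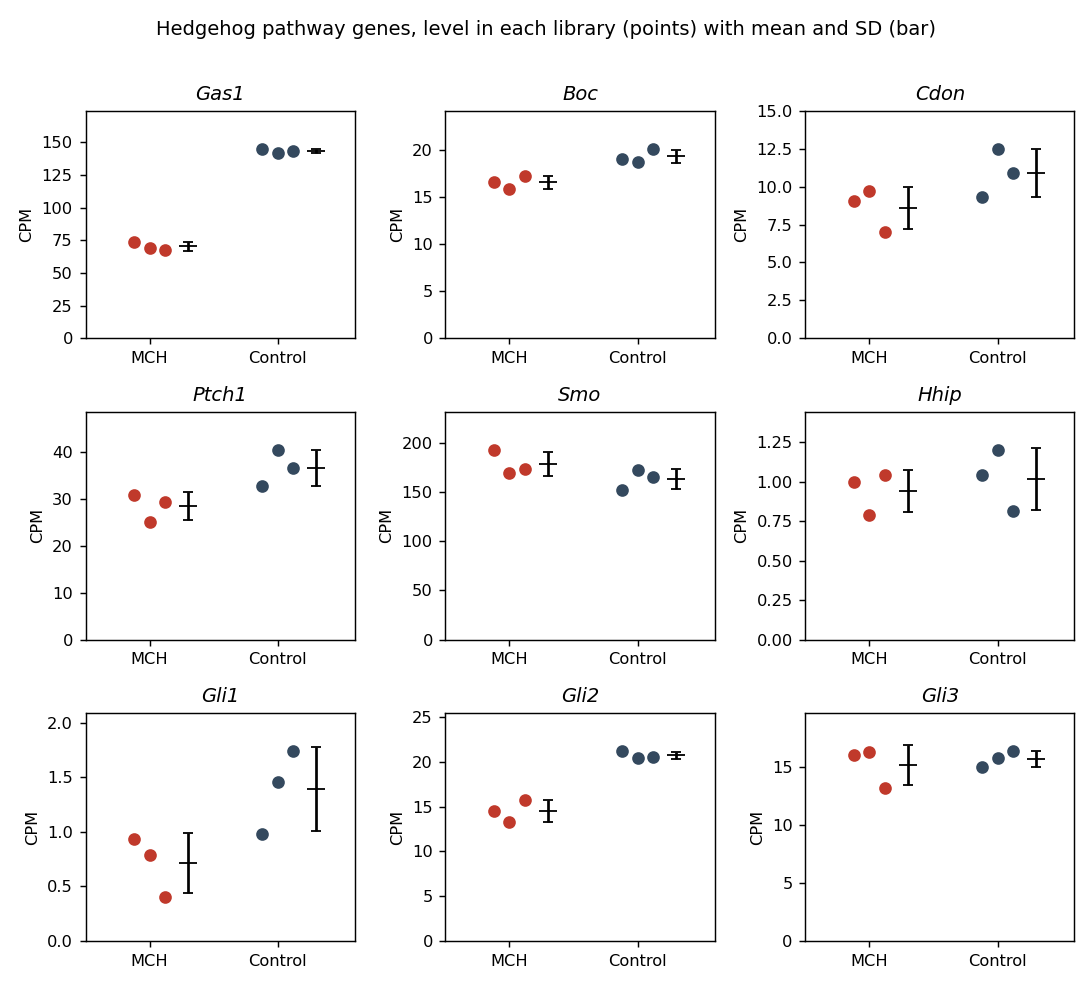
Level of each of the 9 Hedgehog genes in CPM (vertical axes from 0, scaled per gene) in the 3 MCH libraries (red) and the 3 Control libraries (blue), with the mean and SD beside the points. Gas1 lies at 67.5 to 73.9 CPM with MCH and 142 to 145 CPM in Control, and Gli2 also separates. Boc, Ptch1 and Gli1 separate by narrower gaps, while the points of Smo, Cdon, Hhip and Gli3 overlap between groups.

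Across the 9 genes, 8 had a negative and 1, Smo, a positive log2 fold change, with a median of -0.35 against 0.00 over all 13662 genes tested. All 9 passed the filter on low counts. By the threshold of the test over all genes (adjusted p under 0.05), 2 of the 9, Gas1 and Gli2, were lower, where 5.40% of all genes tested were. No Hedgehog gene passed in the upward direction, where 3.64% of all genes did. None had an unadjusted p under 0.05 in that direction by edgeR or an adjusted p under 0.05 by DESeq2, limma-voom or limma on FPKM. Downward, 5 of the 9 had an unadjusted p under 0.05 by edgeR, and DESeq2, limma-voom and limma on FPKM each called 2. In 5 of the 9 (Gas1, Boc, Ptch1, Gli1 and Gli2) all MCH libraries lay below all Control libraries, where 16.6% of all genes tested did. Since this contrast served to choose the set, nothing is read from these counts.

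The other co-receptors showed smaller differences than Gas1. Boc, an immunoglobulin superfamily membrane protein that binds the ligand beside PTCH1, had 16.6, 15.8 and 17.2 CPM with MCH and 19.0, 18.7 and 20.1 CPM in Control. The groups did not overlap, though the difference was small (log2 fold change -0.22 ± 0.09). Cdon, its close relative, had 9.03, 9.70 and 7.01 CPM with MCH and 9.33, 12.5 and 10.9 CPM in Control. Here MCH replicate 2 lay above Control replicate 1, and the log2 fold change was -0.35 ± 0.17. Boc lies at chr16:44485045-44558897 (minus strand) with 19 exons in its M21 transcript, and Cdon at chr9:35421128-35507652 (plus strand) with up to 20.

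Per length, Gas1 made up most of the co-receptor RNA in both groups. In FPKM, which divides by gene length and depth, the 3 co-receptor genes summed to 27.2 ± 1.59 with MCH and 52.9 ± 0.493 in Control (SD, n = 3 each). The share of Gas1 in that sum was 86.6 to 87.5% with MCH and 91.8 to 92.4% in Control. Boc had 9.98 to 11.2% with MCH and 6.14 to 6.54% in Control, and Cdon 2.15 to 2.91% with MCH and 1.42 to 1.93% in Control. The lower co-receptor sum with MCH was thus almost entirely Gas1, since Boc averaged 2.83 FPKM with MCH and 3.32 FPKM in Control.

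**Figure D2:**
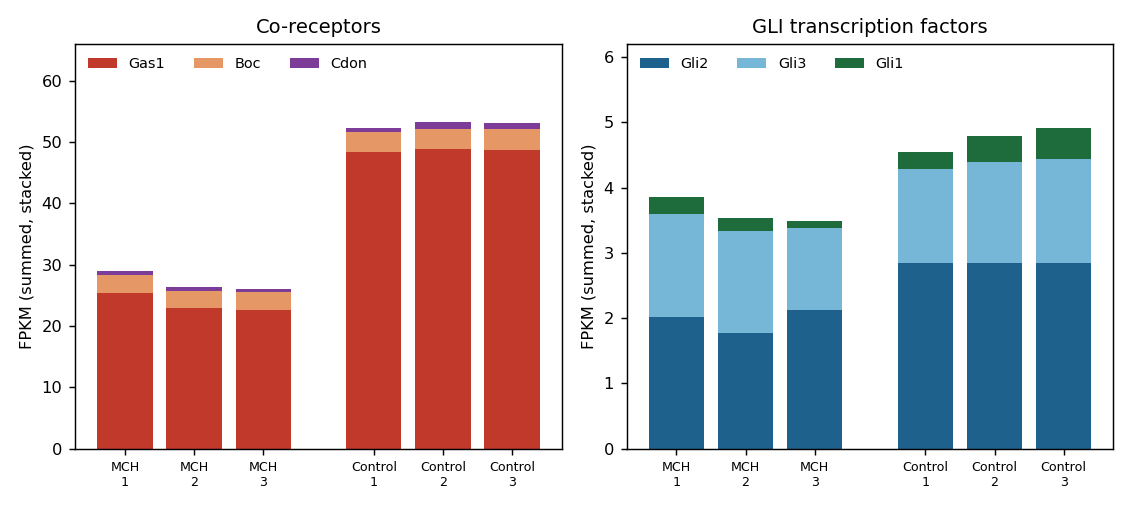
Summed FPKM (vertical axes from 0) of the co-receptor genes on the left and the GLI factor genes on the right, stacked by gene, in the MCH libraries and then the Control libraries. The co-receptor sum is 26.1 to 29.0 FPKM with MCH and 52.3 to 53.2 FPKM in Control, and the GLI sum is 3.50 to 3.86 FPKM with MCH and 4.54 to 4.91 FPKM in Control.

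Ptch1 encodes the ligand receptor and is itself a standard transcriptional target of the pathway. It had 30.9, 25.2 and 29.4 CPM with MCH and 32.7, 40.5 and 36.6 CPM in Control. The highest MCH library lay just below the lowest Control library, and the log2 fold change was -0.36 ± 0.11. Smo, the multi-pass membrane protein that PTCH1 holds inactive, had 193, 169 and 174 CPM with MCH and 152, 173 and 165 CPM in Control. The groups overlapped, and the log2 fold change was 0.13 ± 0.07. Ptch1 lies at chr13:63508328-63573598 (minus strand), on the chromosome that also carries Gas1 and Gli3, and Smo at chr6:29735503-29761365 (plus strand).

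The order of Gas1 and Smo was not the same in the 2 groups. Per length, Gas1 stood at 0.812, 0.870 and 0.822 times Smo in MCH replicates 1, 2 and 3. In Control replicates 1, 2 and 3 it stood at 2.02, 1.75 and 1.84 times Smo. Smo thus led the 9 genes in every MCH library and Gas1 in every Control library. On the same FPKM scale, Gas1 stood at 12.9 to 15.5 times Ptch1 with MCH and at 19.8 to 25.1 times in Control. Smo stood at 15.7 to 17.8 times Ptch1 with MCH and at 11.3 to 12.4 times in Control.

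Hhip encodes a membrane protein that sequesters the ligand and is a pathway target. It rested on 17, 14 and 18 counts with MCH and on 17, 23 and 14 counts in Control. The groups overlapped (log2 fold change -0.12 ± 0.30). The group sums were 49 counts with MCH (exact Poisson 95% interval 36.3 to 64.8) and 54 in Control (40.6 to 70.5), intervals that cover counting error only and overlap widely. With an SE of 0.30, a small difference in Hhip could not be resolved at this depth. Hhip lies at chr8:79966115-80058006 (minus strand), and Gm27820 on the opposite strand shares 175 exonic bases with it.

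Gli1, a direct target whose RNA is the usual readout of pathway activity, was also close to the floor. It had 16, 14 and 7 counts with MCH and 16, 28 and 30 in Control, or 0.938, 0.789 and 0.406 CPM with MCH and 0.982, 1.46 and 1.74 CPM in Control. The groups were separated only by the small step between MCH replicate 1 and Control replicate 1. Summed, this was 37 counts with MCH (exact Poisson 95% interval 26.1 to 51.0) and 74 in Control (58.1 to 92.9). The log2 fold change of -0.97 ± 0.38 was close to that of Gas1 in size but carried a far larger error. With 1 library left out it ranged from -1.21 to -0.69, and it was -0.21 on the log2(FPKM + 1) scale, where the added 1 exceeds the level of the gene. Gli1 lies at chr10:127329889-127341589 (minus strand), and its exons share 62 bases with Arhgap9 (0 to 3 counts per library) and 265 with the antisense RNA Gm47200, both on the opposite strand.

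Gli2, the main activator among the GLI factors, had 14.5, 13.3 and 15.7 CPM with MCH and 21.2, 20.4 and 20.6 CPM in Control. The groups were well separated, and the Control libraries in particular lay close together. The means were 14.5 ± 1.2 CPM with MCH and 20.8 ± 0.383 CPM in Control (SD, n = 3 each), a log2 fold change of -0.52 ± 0.10 that was -0.37 on the log2(FPKM + 1) scale. Gli3, the main repressor, had 16.1, 16.3 and 13.2 CPM with MCH and 15, 15.8 and 16.4 CPM in Control. Its groups overlapped, with MCH replicate 3 below all Control libraries (log2 fold change -0.05 ± 0.11). Per length, the ratio of Gli2 to Gli3 was 1.28, 1.15 and 1.68 with MCH and 1.99, 1.83 and 1.78 in Control. Gli2 lies at chr1:118834132-119053619 (minus strand) and Gli3 at chr13:15463235-15730026 (plus strand), where Gm6556, on the opposite strand, shares 188 exonic bases with Gli3 and had 18 to 38 counts per library.

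By length-scaled level the 9 genes formed a high pair and a low remainder in both groups. With MCH the order of mean FPKM was Smo (28.4 ± 2.55), Gas1 (23.7 ± 1.52), Boc (2.83 ± 0.148), Gli2 (1.97 ± 0.176), Ptch1 (1.71 ± 0.207), Gli3 (1.46 ± 0.174), Cdon (0.691 ± 0.113), Gli1 (0.194 ± 0.0769) and Hhip (0.183 ± 0.0282; SD, n = 3 each). Within that order, Gli2 and Ptch1, Ptch1 and Gli3, and Gli1 and Hhip overlapped between libraries. In Control the order was Gas1 (48.6 ± 0.258), Smo (26.1 ± 2.03), Boc (3.32 ± 0.133), Gli2 (2.84 ± 0.00634), Ptch1 (2.20 ± 0.269), Gli3 (1.53 ± 0.0853), Cdon (0.887 ± 0.142), Gli1 (0.383 ± 0.109) and Hhip (0.200 ± 0.0395), with no overlap between neighbours. Gas1 exceeded 84.8% of the tested genes in FPKM with MCH and 92.7% in Control. Hhip exceeded 4.26% with MCH and 4.07% in Control.

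The source of the ligand was looked for in the same libraries. Ihh and Dhh, which encode Indian and desert hedgehog, were nearly silent: Ihh had 0, 1 and 5 counts with MCH and 1 in each Control library, and Dhh had 2, 1 and 3 counts with MCH and 0, 3 and 0 in Control. Neither could be tested. Shh was not analysed here. Of the genes for making and releasing the ligand, 2 could be tested. Hhat, the acyltransferase that adds palmitate to the ligand, averaged 7.09 CPM (MCH) and 8.60 CPM (Control) (log2 fold change -0.28 ± 0.14, edgeR adjusted p = 0.255). Disp1, which exports the ligand, averaged 18.6 CPM (MCH) and 16.4 CPM (Control) (0.18 ± 0.10, edgeR adjusted p = 0.265). Neither passed, with none at an unadjusted p under 0.05 and none called by DESeq2, limma-voom or limma on FPKM.

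Of the 3 other genes of ligand reception that were tested (Lrp2, Gpc4 and Gpc6), none passed by edgeR, DESeq2, limma-voom or limma on FPKM, and 1 had an unadjusted p under 0.05. That was Gpc4, a heparan sulphate proteoglycan of the cell surface, with averages of 56.5 CPM (MCH) and 48.2 CPM (Control; log2 fold change 0.23 ± 0.08, edgeR adjusted p = 0.117). Gpc6, another glypican, varied more within the groups than between them, with 27.9, 28.2 and 61.1 CPM in the MCH libraries and 59.0, 66.8 and 30.8 CPM in the Control libraries.

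Between SMO and the GLI proteins, 1 of 20 tested genes fell and none rose, near the 5.40% lower and 3.64% higher over all genes. The gene that fell was Sufu, which binds GLI proteins and holds them inactive. It had 36.9, 34.4 and 35.2 CPM with MCH and 42.0, 43.7 and 45.7 CPM in Control, so the groups did not overlap (log2 fold change -0.30 ± 0.07, edgeR adjusted p = 0.0459). The call lay close to the threshold and was lost in 10 of 16 alternatives, among them each fit that left out a library other than MCH replicate 1 (adjusted p up to 0.161). Kif7, the ciliary tip kinesin that organises the GLI proteins, averaged 16.7 CPM (MCH) and 16.6 CPM (Control) (0.00 ± 0.09, edgeR adjusted p = 0.991). In the upward direction, 1 of the 20 had an unadjusted p under 0.05 and 1 was called by DESeq2, none by limma-voom or limma on FPKM. Downward, 2 had an unadjusted p under 0.05. DESeq2 and limma-voom called 1 lower each, and limma on FPKM none. The median log2 fold change of the 20 was -0.08.

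Genes of transport in the primary cilium, on which the pathway depends in vertebrates, did not pass in either direction (0 of 20 by edgeR). Over all genes, 5.40% fell and 3.64% rose. At an unadjusted p under 0.05 there were 4 lower and 1 higher, and DESeq2 called 1 lower, limma-voom and limma on FPKM none. Ift88, a subunit of the intraflagellar transport train, averaged 10.0 CPM (MCH) and 10.5 CPM (Control) (log2 fold change -0.07 ± 0.14, edgeR adjusted p = 0.790). The list ranged from -0.50 to 0.35 with a median of -0.02.

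**Figure D3:**
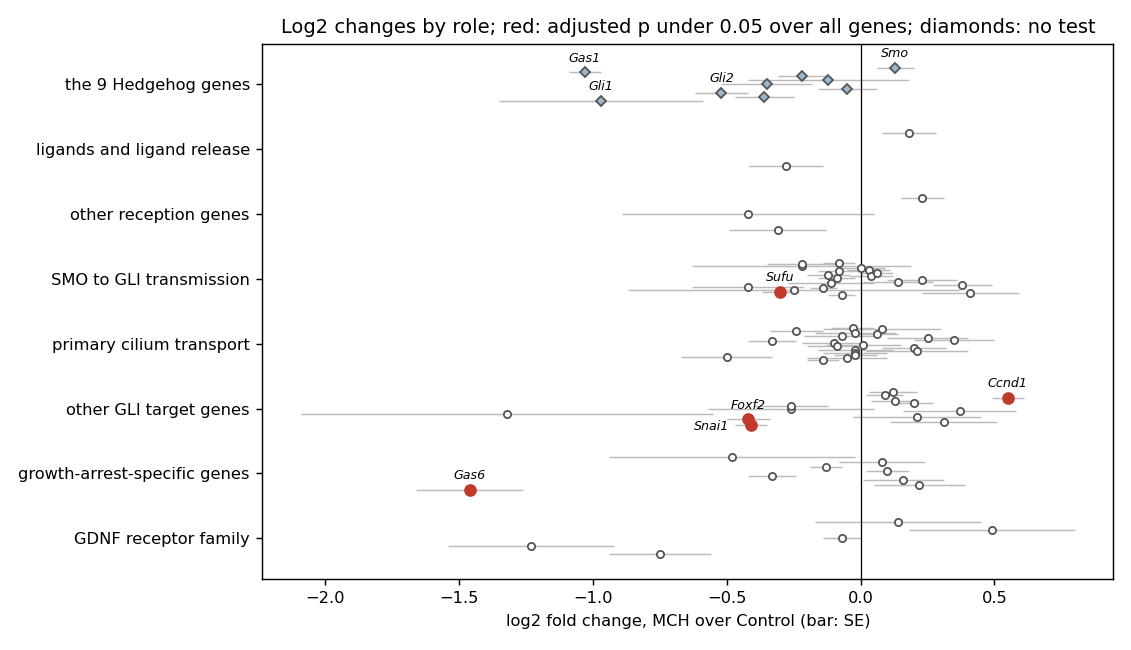
Log2 fold change of MCH over Control (horizontal axis, bars show the SE) for each tested gene, in rows by role. Diamonds are the 9 Hedgehog genes, given with no test; circles are other genes, red where the adjusted p over all genes was under 0.05. Red points are Sufu (-0.30), Foxf2 (-0.42), Snai1 (-0.41), Ccnd1 (0.55) and Gas6 (-1.46), while the ciliary genes lie between -0.50 and 0.35.

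Of 13 tested further genes known as GLI targets in one tissue or another, 2 fell and 1 rose, where 5.40% and 3.64% of all genes did. The median log2 fold change was 0.12 against 0.00 over all genes. At an unadjusted p under 0.05 there were 2 lower and 2 higher. DESeq2, limma-voom and limma on FPKM each called 2 lower and 1 higher. Calls this few are no result about the list. Ccnd1, the cyclin D1 gene that drives passage through G1 and has many regulators besides GLI, had 134, 140 and 128 CPM with MCH and 88.4, 96.5 and 89.4 CPM in Control. It was higher in every MCH library than in any Control library (log2 fold change 0.55 ± 0.06, edgeR adjusted p = 0.00335). Snai1, a transcriptional repressor of epithelial genes, had 113, 114 and 114 CPM with MCH and 155, 144 and 154 CPM in Control (-0.41 ± 0.06, edgeR adjusted p = 0.00659). Foxf2, a forkhead factor of mesenchyme, had 19.0, 18.4 and 19.5 CPM with MCH and 25.8, 25.6 and 24.8 CPM in Control (-0.42 ± 0.08, edgeR adjusted p = 0.0193). For both, all MCH libraries lay below all Control libraries. The Foxf2 call was lost when any library other than MCH replicate 1 was left out (adjusted p up to 0.0763). Its relative Foxf1 averaged 28.8 CPM (MCH) and 26.3 CPM (Control) and did not pass (0.13 ± 0.09, edgeR adjusted p = 0.403).

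Gas1 takes its name from a screen for RNAs that accumulate in growth-arrested fibroblasts, and genes named in this way do not form a family of one function. Of 8 other genes of this name or family tested, 1 fell and none rose, with 2 lower and none higher at an unadjusted p under 0.05. DESeq2, limma-voom and limma on FPKM each called 1 lower and none higher. Over all genes 5.40% fell and 3.64% rose, so a single call among 8 is no result about the list. Gas6, the ligand of the TAM receptor tyrosine kinases, had 3.69, 2.65 and 4.0 CPM with MCH and 9.58, 7.94 and 11 CPM in Control. The groups were far apart relative to their spread (log2 fold change -1.46 ± 0.20, edgeR adjusted p = 0.00666), and the call was present in all 16 alternatives. Gas2, a binding protein of actin filaments and microtubules, averaged 14.5 CPM (MCH) and 18.2 CPM (Control) and did not pass (-0.33 ± 0.09, edgeR adjusted p = 0.0723). The median of the 8 was -0.03.

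GAS1 is related in structure to the GDNF family receptors, which signal through the tyrosine kinase RET. Of 5 tested genes of that family and its ligands none passed by edgeR, with 2 lower and none higher at an unadjusted p under 0.05. DESeq2 called 1 lower, Gfra1, and limma-voom none. Limma on FPKM called 1 lower that was not Gfra1 (limma adjusted p = 0.106 for Gfra1 on log2(FPKM + 1)). Gfra1, the receptor for GDNF, had 2.64, 2.14 and 2.09 CPM with MCH and 5.71, 3.14 and 7.31 CPM in Control. The groups did not overlap but the Control libraries were spread widely, and the gene lay at the threshold (log2 fold change -1.23 ± 0.31, edgeR adjusted p = 0.05004). Across the alternatives its adjusted p ran from 0.0103 to 0.169, and it was 0.0188 without Control replicate 2. Gfra2 had 2.05, 1.80 and 1.97 CPM with MCH and 3.68, 2.82 and 3.31 CPM in Control. The groups did not overlap, and Gfra2 also lay just outside the threshold (-0.75 ± 0.19, edgeR adjusted p = 0.0509). Ret was near the floor, with 4, 8 and 13 counts with MCH and 5, 9 and 13 counts in Control, and was not tested.

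The genes with a profile most like that of Gas1 were sought among the 10488 tested genes that averaged 100 counts or more. Likeness was the root mean square difference between log2 CPM profiles over the 6 libraries, each centred on its own mean. The 5 nearest were Ssc5d (0.042), Spp1 (0.051), Col3a1 (0.056), Lbp (0.063) and Csgalnact1 (0.066), where the median over the genes considered was 0.547. Spp1 encodes the bone matrix protein osteopontin, Col3a1 a fibrillar collagen, Lbp the lipopolysaccharide-binding protein and Csgalnact1 an enzyme of chondroitin sulphate synthesis. Spp1 averaged 502 ± 13.4 CPM (MCH) and 1049 ± 20.1 CPM (Control), and Ssc5d 25.1 ± 1.22 CPM (MCH) and 51.3 ± 2.10 CPM (Control) (SD, n = 3 each). Such profiles are set mainly by the difference between the groups, and 6 libraries hold little else. Of the other Hedgehog genes the closest was Gli2, which differed by 0.272 and ranked 297 of 10488, and the next was Ptch1, at 0.360 and rank 778.

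**Figure D4:**
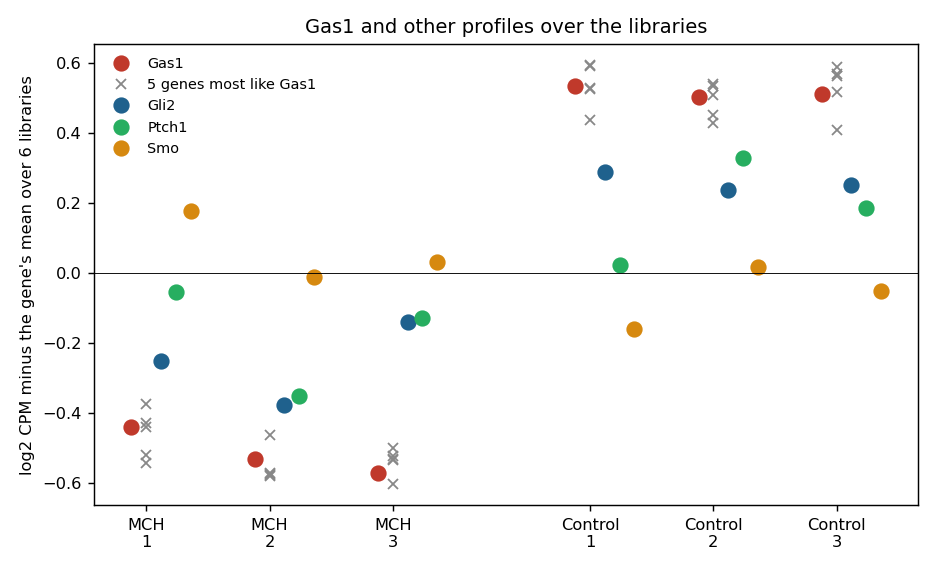
Log2 CPM of each gene minus its mean over the 6 libraries (vertical axis) in the MCH and then the Control libraries, for Gas1, the 5 genes nearest to it (crosses), Gli2, Ptch1 and Smo. Gas1 lies between -0.571 and -0.442 with MCH and between 0.502 and 0.533 in Control with the crosses around it, Gli2 and Ptch1 lie nearer to 0, and Smo shows no such separation.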

How the data were processed

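Polyadenylated RNA of 3 MCH and 3 Control samples was sequenced by the authors. Per the file headers, the authors deposited whole-number counts and FPKM for each gene, with group means of FPKM that equal the column means for all 19353 genes. The table also holds the authors' p-values and q-values, which were not used. Coordinates are on GRCm38, which the submitters' processing notes name as mm10. Aligner, counter, annotation and strand setting: not given in the sources used here. Control columns were identified by the absence of MCH in their names, and every direction rests on that. Gene names came from GENCODE M21 (19250 IDs matched); the 9 members matched by the table's own names.

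The main test was the two-sided quasi-likelihood test of edgeR 4.0.16 (R 4.3.3), robust, with group as its one term, after TMM scaling and filterByExpr (minimum count 10, minimum total 15; 13662 genes kept, 5691 left out), with Benjamini-Hochberg adjustment at 0.05. CPM values are TMM scaled. SEs were obtained as the unshrunken coefficient over the root of F. Levels of different genes were compared in FPKM, apart from the cell type marker sums and their leading genes. Those are in CPM, which is not scaled by length. Comparisons in FPKM rest on the gene lengths behind the authors' FPKM, which were not checked. The alternatives tried were scaling by RLE or by the upper quartile, DESeq2 1.42.0, limma-voom, limma on log2(FPKM + 1) or log2(FPKM + 0.1) (limma 3.58.1), no filter, at least 50 counts in 3 libraries, a non-robust fit, a replicate block and leaving out each library. The fits were tested on simulated data with known changes. Within each group, every pair of libraries was further apart than counting error gives (chi-square over its degrees of freedom 16.0 to 27.1), so none was treated as a copy.

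The members and lists were chosen with earlier results of these data known. Named genes were the 9 members, pathway-list genes past the threshold, a fixed few per list, and the 5 genes nearest to Gas1. Gpc4, Gpc6, Gfra2 and the cell type markers were named after their values were seen. A gene among the fixed few is not reported here.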

Additional observations from a re-analysis of the deposited data

How the results depend on the processing

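The log2 fold change of Gas1 (-1.03) lay between -1.07 and -1.0 over 16 alternatives. The same sign was found in all alternatives run for Boc, Cdon, Ptch1, Smo, Gli1 and Gli2, while Hhip (-0.25 to 0.02) and Gli3 (-0.10 to 0.04) crossed 0. The number of Hedgehog genes past the threshold, 2, was 1 with the replicate block and 1 to 2 with a library left out; among the fits that left out a library, Gli2 passed in the one without MCH replicate 1 alone. Over all genes, 497 were higher and 738 lower; with the replicate block these were 28 and 151, and with a library left out 65 to 722 and 256 to 867. The higher and lower counts were 116 and 342 without MCH replicate 2, 65 and 256 without MCH replicate 3, 110 and 307 without Control replicate 2 and 106 and 306 without Control replicate 3, and 285 were higher without Control replicate 1. The cause was not tested. No pairing by replicate number was visible. Deviations of same-numbered libraries correlated at -0.161, -0.039 and -0.014, and 0 of 6 libraries correlated best with their own number. Whether same-numbered samples shared an animal or a batch cannot be told from this.

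Of the other genes named, Ccnd1 and Gas6 passed in all 16 alternatives and Snai1 in all but the replicate block (adjusted p = 0.0818). With the block Sufu had an adjusted p of 0.203 and Foxf2 of 0.129. Kif7, at 0.00, was -0.01 with upper-quartile scaling, the stricter filter and both FPKM scales, and -0.03 to 0.05 with a library left out. Ift88 was 0.00 without MCH replicate 2 and 0.05 without Control replicate 2, within a range of -0.13 to 0.05 with a library left out. Depth limits Gli1, Hhip, Ihh, Dhh and Ret, which had 0 to 30 counts per library.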
